A study of Arabidopsis thaliana with 28 samples.

Results

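A set of 4 genes known for their activity in roots was followed in UV-B-treated Arabidopsis thaliana of the Col-0 accession. UV-B is the most energetic ultraviolet light that reaches the ground. They were PYK10 (AT3G09260, probe set 259009_at), EXPA7 (AT1G12560, 259525_at), EXPA18 (AT1G62980, 261099_at) and OSM34 (AT4G11650, 254889_at). The genes were chosen by name, with earlier results of these data known. Each was represented by 1 probe set that matched no other gene. They were thus 4 of the 13355 genes that a probe set named on its own, among 22746 probe sets on the array. All 28 samples came from plants that had received UV-B of 1.18 W/m2 from a lamp for 15 min, starting 3 h into the light period on day 16. The plants had grown on Murashige and Skoog medium at 24 °C with 16 h of light per day. Roots formed 7 groups, labelled 0.25, 0.5, 1, 3, 6, 12 and 24 h, and shoots formed 7 groups with the same times, each with 2 arrays. The labels do not say which organs the lamp reached, whether times were counted from lamp-on or lamp-off, or whether replicates were separate cultures. P-values therefore only set differences against the scatter between replicate arrays, pooled in the main fit over all 14 groups. That scatter may be technical. No array of unexposed plants was analysed here, and the earliest time, 0.25 h, was the base for each tissue. The 3 h to 12 h samples also differ from the 0.25 h samples in the hour of the day.

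PYK10 encodes a beta-glucosidase that is stored in ER bodies, spindle-shaped compartments of the endoplasmic reticulum that are abundant in roots and seedlings. When tissue is damaged, PYK10 meets its glucoside substrates and forms large complexes with jacalin-related lectins, which are regarded as a defence. EXPA7 and EXPA18 encode alpha-expansins, proteins that loosen the cell wall, and both are expressed in root hair cells as the hairs form and elongate. OSM34 encodes an osmotin-like protein of the thaumatin family, a group of pathogenesis-related proteins that in several plants also respond to salt and drought.

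Values are MAS5 signals, a linear measure of how brightly a probe set lit up, which set the same gene side by side across arrays but not different genes. Array medians lay between 44.3 and 47.4 in roots and between 36.7 and 39.0 in shoots, and Pearson's r between the replicates of a group, across probe sets, was 0.982 to 0.995. The 6 shoot marker genes measured encode photosynthesis proteins or mark leaf cell types. All 6 were lower in roots over all times, as were 31.4% of all probe sets. Their summed signal was 280 to 550 on root arrays and 14341 to 27937 on shoot arrays. None of the 24 root cell type markers listed was named and measured, and of 27 root hair genes only EXPA7 and EXPA18 were, so no other root cell type could be followed. On root arrays the shoot markers moved with time. Their summed signal was 370 and 427 at 0.25 h, 280 and 451 at 12 h, and 550 and 510 at 24 h. Of the 6, 3 were called higher at 24 h than at 12 h, as were 12.8% of all probe sets. In whole organs, fewer cells of a type and less RNA per cell cannot be told apart.

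One shoot array stood apart. Of 42 probe sets that were bright on every root array and dim in shoots, a set chosen after the values were seen, 29 were highest among shoots on replicate 1 at 0.5 h. Their median there was 0.77 above the median of the 14 shoot arrays (log2), against -0.21 to 0.19 on the other 13, and their summed signal was 2415, against 688 to 1940. PYK10 and OSM34 were also highest among shoots on that array, whereas EXPA7 (12.7) and EXPA18 (15.3) were not, as the plot of deviations by shoot array shows. Many of the results were also computed without this array, and the outcome is given beside some of them, not all. Where no such value is printed, the part of this array in the result is not shown here. A set of 123 probe sets bright in shoots and dim in roots, chosen in the same way, moved less on root arrays. Its median deviation from the median of the root arrays was 0.30 and 0.21 at 0.5 h, -0.28 on replicate 1 at 12 h, and between -0.11 and 0.14 on the other 11 root arrays. The part of these shifts in the root results was not tested.

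**Figure D1:**
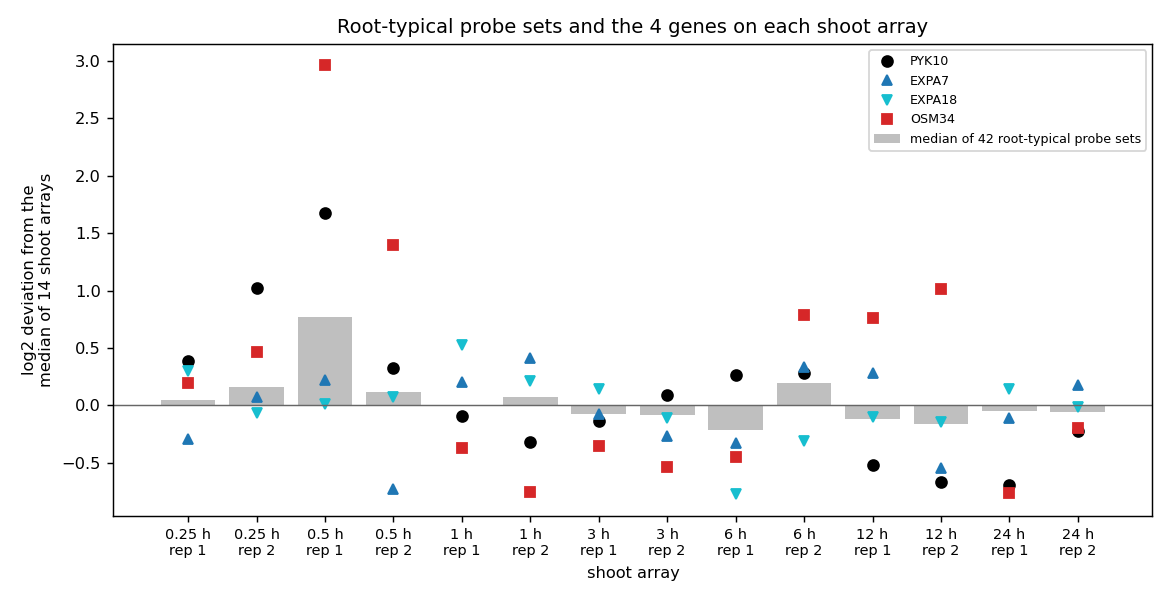
Log2 deviation of each of 14 shoot arrays (x axis, by time and replicate) from the median of the shoot arrays (y axis). Bars give the median of the 42 root-typical probe sets, and symbols give the 4 genes. Replicate 1 at 0.5 h has the highest bar, 0.77, and the highest PYK10 and OSM34 values.

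All 4 genes were higher in roots than in shoots at each of the 7 times, in contrasts where 51.3% of all probe sets were higher in roots at 0.25 h, 52.8% at 0.5 h, 52.1% at 1 h, 48% at 3 h, 43.2% at 6 h, 50% at 12 h and 48.7% at 24 h. Over all times the difference was 2.83 ± 0.11 for PYK10, 1.80 ± 0.10 for EXPA7, 1.70 ± 0.06 for EXPA18 and 6.16 ± 0.15 for OSM34 (log2 ± SE, 14 root against 14 shoot arrays). Differences are on the scale log2(signal + 9.58), with the 25th percentile of the signals added before the logarithm. With no pseudocount and with the median signal added instead, the difference was 2.73 and 0.94 for EXPA7 and 2.26 and 0.98 for EXPA18 (all 4 called). With limma, the largest adjusted p among these 4 contrasts was 3.25e-13 (EXPA7). The genes were chosen as root genes with earlier results of these data known. The p-values of their root against shoot contrasts are therefore a description. Of all 14806 probe sets tested, 59.9% were higher in roots in this contrast, and the median of all was 0.28. Root and shoot signals of each gene did not overlap. For this and later statements on arrays that did not overlap, the share of all probe sets is not given here. PYK10 ran from 3150 through a median of 3544 to 3799 in roots and from 276 through 452 to 1460 in shoots. OSM34 ran from 876 through 1922 to 2474 in roots and from 2.71 through 11.5 to 153 in shoots. EXPA7 lay between 35.0 and 96.1 in roots, with a median of 57.0, and between 1.97 and 15.9 in shoots, with a median of 9.57. EXPA18 lay between 41.7 and 120 in roots, with a median of 73.9, and between 4.87 and 25.9 in shoots, with a median of 15.1. The level of the expansins and OSM34 in shoots was low for this array. EXPA7 and EXPA18 were above their array's median on 0 of 14 shoot arrays, and on 9 and 12 of 14 root arrays, while OSM34 was above it on 2 of 14 shoot arrays. EXPA7 and EXPA18 therefore passed the filter for low signals, which asks for 2 arrays above the median, through root arrays alone, and OSM34 through arrays of either tissue. The smallest of the 28 differences at single times was that of EXPA18 at 1 h (0.72 ± 0.16; adjusted p = 3.66e-04), when the EXPA18 mean was lowest in roots and highest in shoots. In shoots the signals at 1 h overlapped those at 0.25 h.

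**Figure D2:**
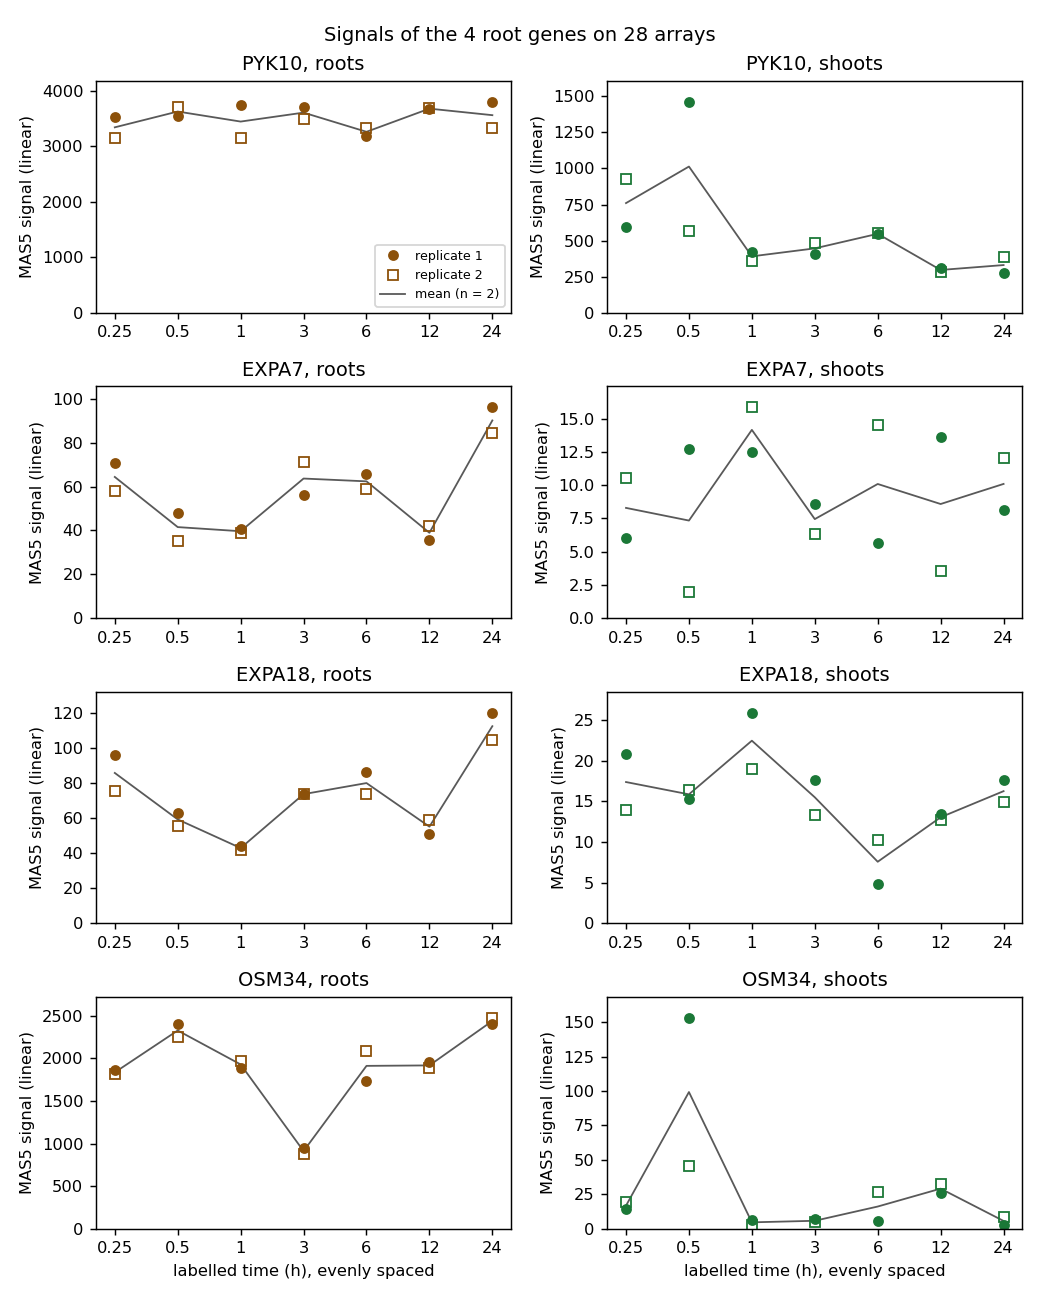
MAS5 signals (y axis, linear, a scale for each panel) of PYK10, EXPA7, EXPA18 and OSM34 on 28 arrays, with roots in the left panels and shoots in the right, against the labelled time (x axis, evenly spaced). Points are arrays and lines join the means of 2 replicates. PYK10 stays between 3150 and 3799 in roots, OSM34 dips at 3 h in roots, and EXPA7 and EXPA18 are low in roots at 0.5, 1 and 12 h and highest there at 24 h.

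In roots the PYK10 means at the 7 times lay within 0.17 of each other (log2), closer than its 2 replicates at 1 h (0.25 apart). Its signals on replicates 1 and 2 were 3538 and 3150 at 0.25 h, 3550 and 3707 at 0.5 h, 3741 and 3155 at 1 h, 3719 and 3500 at 3 h, 3186 and 3340 at 6 h, 3670 and 3692 at 12 h, and 3799 and 3328 at 24 h. The highest mean was 1.13-fold the lowest, and no pair of neighbouring times in the order of means was separated by non-overlapping replicates (limma's moderated F, adjusted p = 0.998). Across all probe sets, 53.5% changed over time in roots by the same test. The list of ER body and PYK10-complex genes held 6 measured genes besides PYK10. It included NAI1, a transcription factor needed for ER bodies, NAI2, an ER body component, and the jacalin-related lectins JAL22, JAL23, JAL33 and JAL34. In roots 0 of 6 were higher and 0 of 6 lower than at 0.25 h at each of the 6 later times (percentages of all probe sets called higher or lower in roots were 5.61 and 4.13 at 0.5 h, 6.29 and 6.29 at 1 h, 11.9 and 11.3 at 3 h, 7.88 and 7.9 at 6 h, 11.5 and 9.79 at 12 h, and 7.08 and 7.26 at 24 h). At an unadjusted p under 0.05 in limma, 1 of 6 was higher at 0.5 h, 1 at 24 h and 0 at the other times, and 0 were lower at any time. With roots fitted alone, 1 of 6 was higher at each of 3, 12 and 24 h (15.2%, 15.9% and 10.7% of probe sets higher). Of these genes, 5 were higher in roots than in shoots over all times (59.9% of probe sets higher), with a list median of 2.80 (log2). JAL23 was lower in roots (-2.19 ± 0.12; adjusted p = 3.13e-13; 31.4% of probe sets lower), with signals of 5.84 to 17.7 in roots and 24.6 to 137 in shoots.

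In shoots PYK10 changed over the course (moderated F, adjusted p = 5.59e-04), where 85.8% of all probe sets changed. PYK10 signals were 593 and 928 at 0.25 h, 1460 and 567 at 0.5 h, 422 and 360 at 1 h, 411 and 482 at 3 h, 543 and 552 at 6 h, 313 and 281 at 12 h, and 276 and 386 at 24 h. Every array from 1 h on lay below both 0.25 h arrays. The PYK10 difference from 0.25 h was -1.30 ± 0.29 at 12 h (log2 ± SE; adjusted p = 0.00159), when 20.2% of probe sets were lower. At 1 h the difference was -0.91 ± 0.29 (adjusted p = 0.0284; 14% of probe sets lower) and at 24 h it was -1.16 ± 0.29 (0.00773; 11.4% lower). At 3 h it was -0.72 (0.0476; 27.5% lower). The 6 h difference was -0.43 (adjusted p = 0.209), called without either shoot 0.5 h array (0.0262 in both cases) and at -0.11 without shoot 0.25 h replicate 2. The 12 h call for PYK10 was kept in each alternative setting and each array omission tried. Fitting the 14 shoot arrays by themselves ended the 1 h call (adjusted p = 0.148), as did leaving out shoot 0.25 h replicate 2 (-0.59, 0.234), 1 h replicate 1 (0.0566) or 1 h replicate 2 (0.155). The 24 h call ended in the same fit (0.0765) and without 0.25 h replicate 2 (-0.84, 0.0940) or 24 h replicate 1 (-0.92, 0.0819). The 3 h call was lost in 7 other settings and in 23 of 28 omissions, with -0.41 without shoot 0.25 h replicate 2. The difference at 0.5 h was 0.29 (adjusted p = 0.559), and it turned to -0.38 without replicate 1 of that time, to -0.03 without 0.25 h replicate 1, and to 0.97 (0.00264) without 0.5 h replicate 2.

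ER body genes were lower in shoots at several of the same times. Of the 6 measured besides PYK10, 0 were called lower at 0.5 h, 2 at 1 h, 3 at 3 h, 3 at 6 h, 5 at 12 h and 2 at 24 h, and 0 were called higher at any time (share of all probe sets called lower: 6.33% at 0.5 h and 31.6% at 6 h, and as given above at the other times). At an unadjusted p under 0.05 in limma, 1 was lower at 0.5 h and 0 were higher at any time. At 12 h the list median was -1.06 and that of all probe sets 0.03. The 6 shoot markers moved at the same times, with 2 of 6 lower at 3 h, 5 at 6 h (median -0.79) and 4 at 12 h (median -0.49), and 0 at 1 h and 24 h (at an unadjusted p under 0.05 in limma, 0 and 1). Their part in these results was not tested. JAL22 had signals of 69.4 and 58.3 at 12 h, against 214 and 287 at 0.25 h, a log2 difference of -1.81 ± 0.39 (adjusted p = 0.00123). NAI2 had 47.0 and 55.4 at 12 h, against 122 and 130 at 0.25 h, a difference of -1.16 ± 0.20 (6.36e-05). JAL33 changed by -1.18 ± 0.32 (0.00642), JAL34 by -0.95 ± 0.20 (5.38e-04) and NAI1 by -0.77 ± 0.25 (0.0142), while JAL23 was at -0.74 (adjusted p = 0.0576). At 1 h, when both PYK10 and this list stood low, JAL34 had signals of 136 and 110, against 282 and 351 at 0.25 h (-1.30 ± 0.20; 4.68e-05), and NAI2 changed by -0.89 ± 0.20 (0.00192). PYK10 and 5 of the 6 list genes had their highest shoot signal on replicate 1 at 0.5 h (JAL22 426, against 287 on the next highest array). JAL23 had its highest on replicate 1 at 0.25 h. With either shoot 0.5 h array left out, more of the 6 were called lower at 1, 3, 6, 12 and 24 h, while the list medians were unchanged. The count at 3 h fell to 0 without shoot 0.25 h replicate 2 and to 1 without 3 h replicate 1 or with shoots by themselves (24.5% of probe sets lower). At 24 h it was 1 without 0.25 h replicate 2 or 24 h replicate 2.

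**Figure D3:**
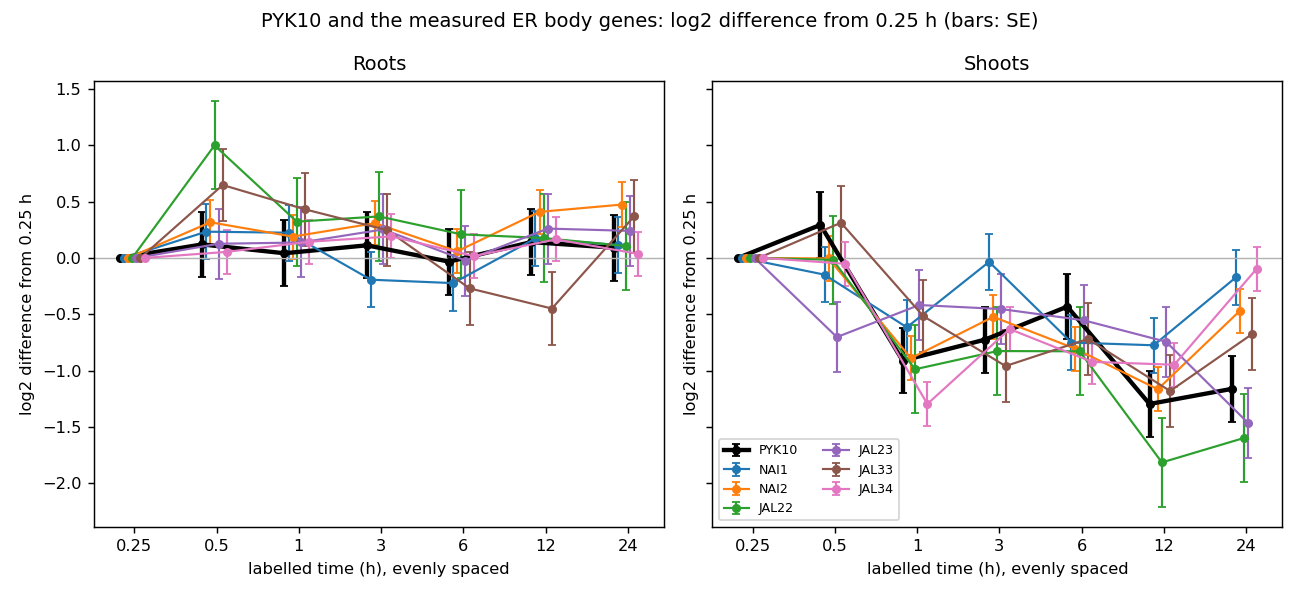
Log2 difference from 0.25 h (y axis) of PYK10 and 6 ER body genes against labelled time (x axis, evenly spaced), with roots on the left and shoots on the right. Bars are standard errors of the joint fit, and all lines start at 0 by construction. In shoots the genes lie below 0 at most times from 1 h on, with JAL22 at -1.81 and PYK10 at -1.30 at 12 h, while in roots PYK10 stays between -0.03 and 0.14.

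The change of PYK10 from 0.25 h differed between tissues at 12 h (roots minus shoots 1.44 ± 0.41; adjusted p = 0.0158). In this contrast 13.2% of probe sets were higher. The PYK10 call was lost without shoot 0.25 h replicate 2 (1.12, 0.0751), root 0.25 h replicate 2 (1.35, 0.0528) or shoot 12 h replicate 2 (1.36, 0.0545). At 24 h the difference was 1.25 ± 0.41 (0.0577), and it lay between 0.93 and 1.57 over the array omissions. It was called without shoot 0.25 h replicate 1 (1.57). It was also called, at an unchanged 1.25, without either shoot 0.5 h array, neither of which is in this contrast.

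The 2 root hair expansins had similar time courses in roots. EXPA7 signals were 70.9 and 57.9 at 0.25 h, 48.1 and 35.0 at 0.5 h, 40.5 and 38.8 at 1 h, 56.2 and 71.2 at 3 h, 65.8 and 59.0 at 6 h, 35.7 and 42.2 at 12 h, and 96.1 and 84.3 at 24 h. EXPA18 signals were 96.1 and 75.8 at 0.25 h, 62.9 and 55.9 at 0.5 h, 44.4 and 41.7 at 1 h, 73.9 and 73.8 at 3 h, 86.4 and 73.9 at 6 h, 51.3 and 59.3 at 12 h, and 120 and 105 at 24 h. Both genes were highest at 24 h and next highest at 0.25 h, and their 3 lowest times were 0.5, 1 and 12 h. At 0.5 h, 1 h and 12 h both arrays lay below both 0.25 h arrays, and at 24 h above, for each gene. Over the 7 times EXPA18 changed (moderated F, adjusted p = 5.67e-05; highest over lowest mean 2.32-fold), and so did EXPA7 (0.0182; 2.06-fold). The EXPA7 call was lost without root 24 h replicate 1 (0.0754) or with no pseudocount (0.530).

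EXPA18 fell at 1 h by 0.85 ± 0.16 relative to 0.25 h (log2; adjusted p = 8.23e-04) and was 0.66 ± 0.16 higher at 3 h than at 1 h (0.00609; 9.34% of probe sets higher). It was -0.55 ± 0.16 at 12 h (0.0191), and 0.91 ± 0.16 higher at 24 h than at 12 h (2.60e-04; 12.8% of probe sets higher), the contrast in which 3 of 6 shoot markers were higher. EXPA7 was 1.04 ± 0.28 higher at 24 h than at 12 h (0.00741), and its 1 h and 12 h differences from 0.25 h were -0.58 ± 0.28 (0.201) and -0.61 ± 0.28 (0.127). Fitted with the 14 root arrays alone, where the replicate spread of EXPA7 was smaller (pooled SD of log2 values 0.16 in roots and 0.41 in shoots), the EXPA7 values were called at 0.5, 1, 12 and 24 h (0.0185, 0.00915, 0.00512 and 0.0403; 7%, 8.94% and 13.2% of probe sets lower at the first 3 of these times and 10.7% higher at 24 h). EXPA18 at 12 h lost its call without root 0.25 h replicate 1 (-0.40, 0.216) or root 12 h replicate 1 (-0.46, 0.134), and EXPA18 at 3 h against 1 h without root 1 h replicate 2 (0.63, 0.0590). EXPA7 at 24 h against 12 h lost its call without root 12 h replicate 1 (0.0591) or root 24 h replicate 1 (0.0567). EXPA7 and EXPA18 correlated at Pearson's r of 0.94 over the 14 root arrays and at 0.89 without the 24 h arrays, against 0.18 over the 14 shoot arrays, where both signals were low. These correlations are a description, since arrays of 1 time share a group. The 2 genes are close relatives, and cross-hybridization between their probe sets was not tested.

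**Figure D4:**
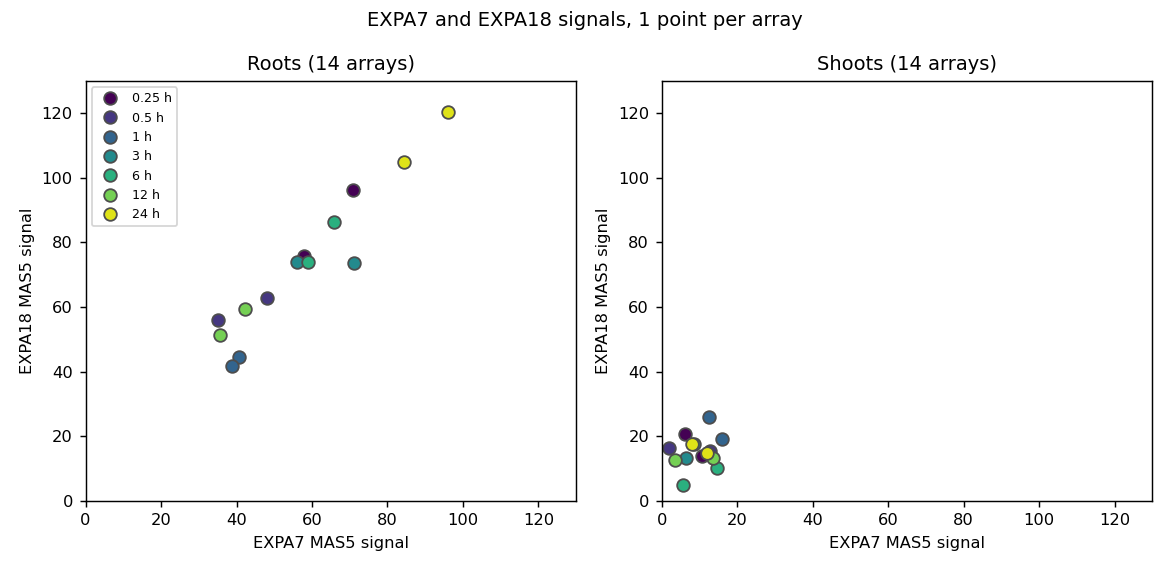
MAS5 signals of EXPA7 (x axis) and EXPA18 (y axis) with a point per array, coloured by labelled time, in roots (left, 14 arrays) and shoots (right, 14 arrays). In roots the points run from about the 1 h and 12 h arrays up to the 24 h arrays at 96.1 and 84.3 for EXPA7 and 120 and 105 for EXPA18. In shoots they lie under 15.9 for EXPA7 and 25.9 for EXPA18.

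In shoots EXPA7 gave no call over time (moderated F, adjusted p = 0.529), with signals between 1.97 and 15.9. EXPA18 changed (0.00156), being lowest at 6 h with signals of 4.87 and 10.3, against 20.8 and 14 at 0.25 h. That difference was -0.66 ± 0.16 (adjusted p = 0.00137; 31.6% of probe sets lower) and -0.43 (0.0531) without shoot 6 h replicate 1. With the median pseudocount it was -0.26 and with none -1.27, both called. The change of EXPA18 from 0.25 h to 1 h differed between tissues (-1.10 ± 0.23; adjusted p = 0.00225; 7.19% of probe sets lower), by -0.71 with the median pseudocount. At 1 h EXPA18 signals were 44.4 and 41.7 in roots and 25.9 and 19.0 in shoots. The shoot change from 0.25 h to 1 h was 0.25 ± 0.16 and not called (limma, adjusted p = 0.276), at signals below the array median. At 6 h the tissue difference of its change was 0.57 ± 0.23 (0.0449; 23.9% higher), a call lost in 4 other settings and in 14 omissions, with values of 0.20 with the median pseudocount, 1.17 with none and 0.34 without shoot 6 h replicate 1. EXPA7 at 1 h had a tissue difference of -1.0 ± 0.39 (0.0958), which lay between -1.18 and -0.82 over the array omissions. Among the omissions it was called only without either shoot 0.5 h array, neither of which is in this contrast.

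Of 8 alpha-expansins measured, 6 passed the low-signal filter. Among the 4 besides EXPA7 and EXPA18, EXPA9 was the one that fell with EXPA18 in roots at 1 h (-0.77 ± 0.20, adjusted p = 0.00948 by limma). Its signals were 43.1 and 42.8 at 1 h, against 61.3 and 104 at 0.25 h. EXPA9 was then higher at 3 h than at 1 h (0.70 ± 0.20; 0.0141). EXPA4 had 507 and 519 at 0.5 h in roots, against 242 and 346 at 0.25 h (0.80 ± 0.21; 0.0211), and 188 and 143 at 6 h (-0.78 ± 0.21; 0.0169). From 6 h to 12 h, EXPA4 (1.22 ± 0.21), EXPA8 (0.88 ± 0.21) and EXPA15 (1.22 ± 0.24) were higher, so 3 of 4 rose in a contrast where 8.26% of probe sets rose (2 of 4 without root 6 h replicate 2 or root 12 h replicate 1), whereas EXPA7 and EXPA18 had differences of -0.57 and -0.47, neither called in the joint fit (6.7% of probe sets lower). With roots alone both were called (0.00980 for EXPA7 and 0.0110 for EXPA18; 10.5% of probe sets lower). The EXPA18 value, at 0.0573 in the joint fit, was also called in 4 other settings and in 5 omissions of a shoot array (0.0404 to 0.0498), and the EXPA7 value in 1 other setting. In shoots at 6 h, all 4 were lower than at 0.25 h (median -0.95; 31.6% of all probe sets lower, and 5 of 6 shoot markers), with EXPA8 at -2.27 ± 0.21 (6.20e-09) and signals of 101 and 57.6 at 6 h, against 385 and 429 at 0.25 h. Without shoot 6 h replicate 1, 2 of 4 were lower. EXPA8 was lower in roots than in shoots over all times (-2.82 ± 0.08; 3.86e-19), unlike the other 3, which were higher.

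OSM34 had a dip in root signal at 3 h. Its signals were 1861 and 1812 at 0.25 h, 2403 and 2254 at 0.5 h, 1890 and 1970 at 1 h, 949 and 876 at 3 h, 1740 and 2086 at 6 h, 1954 and 1883 at 12 h, and 2407 and 2474 at 24 h. Both 3 h arrays lay below all 12 other root arrays, and both 0.5 h arrays and both 24 h arrays lay above both 0.25 h arrays. At 3 h the mean was 912 ± 51.7, against 1837 ± 34.4 at 0.25 h (SD, n = 2 each), a log2 difference of -1.0 ± 0.39 that was not called in the joint fit (adjusted p = 0.0753). OSM34 replicates spread less in roots (pooled SD 0.08, log2) than in shoots (0.57), and the joint fit uses 1 spread for both. With the 14 root arrays fitted alone, the difference at 3 h was -1.0 ± 0.08 (adjusted p = 3.51e-07; 15.6% of probe sets lower) and that over the 7 times had an adjusted p of 5.19e-08 (63.8% of probe sets changed), against 0.0752 in the joint fit. The 3 h value was also called in the joint fit without either shoot 0.5 h array or either shoot 6 h array, none of which is in this contrast. No other omission gave a call, and the value lay between -1.06 and -0.95 over all omissions. At 6 h the level was 1.06 above that at 3 h (log2; joint adjusted p = 0.0875; roots alone 5.18e-07, where 10.5% of probe sets were higher). Differences from 0.25 h at 0.5 h (0.34) and 24 h (0.41) were called with roots alone (0.0131 and 0.00264; 8% and 10.7% of probe sets higher) and not jointly (0.680 and 0.550).

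In shoots OSM34 changed over time (moderated F, adjusted p = 5.86e-05), with signals of 14.3 and 19.3 at 0.25 h, 153 and 45.6 at 0.5 h, 6.54 and 2.83 at 1 h, 6.77 and 4.86 at 3 h, 5.75 and 26.6 at 6 h, 25.8 and 32.5 at 12 h, and 2.71 and 8.67 at 24 h. The 0.5 h arrays were the highest. At 0.5 h OSM34 was higher than at 0.25 h by 1.85 ± 0.39 (log2; adjusted p = 0.00466), when 7.72% of probe sets were higher, and by 1.07 without replicate 1 of that time (0.0674). With the median pseudocount the difference was 1.16 and called. That array also carried the high root-typical signals described above. Differences of the other times from 0.25 h were not called, and the tissue difference of the change at 0.5 h was -1.51 ± 0.55 (0.121). Over the array omissions that difference lay between -2.29, without shoot 0.5 h replicate 2, and -0.73.

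Of 11 thaumatin family genes measured, 8 passed the low-signal filter, OSM34 and 7 others. All 7 were higher in roots than in shoots over all times (median 0.79, against 0.28 over all probe sets, of which 59.9% were higher). In roots at 3 h, 2 of 7 were higher and 2 lower than at 0.25 h, against 11.9% and 11.3% of all probe sets. ATLP-1 (AT1G18250) fell with signals of 71.3 and 86.5 at 3 h, against 144 and 185 at 0.25 h (-0.97 ± 0.32; adjusted p = 0.0340), and AT1G73620 fell by 0.54 ± 0.18 on the log2 scale (0.0305). AT4G36010 (0.56 ± 0.18; 0.0289) and AT5G40020 (0.58 ± 0.19; 0.0276) were higher. ATLP-1 and AT1G73620 were higher at 12 h than at 6 h (1.26 ± 0.32 and 0.77 ± 0.18). These 4 calls at 3 h were all lost without root 0.25 h replicate 2 or either 3 h array, and some were lost without root 0.25 h replicate 1. With no pseudocount, 0 of 7 were higher and 1 lower at 3 h. In shoots AT4G36010 was higher at 6 h (1.48 ± 0.18; 3.74e-07; 31.6% of probe sets higher), with signals of 70.6 and 67.2, against 26.5 and 12.4 at 0.25 h, and ATLP-1 was lower (-1.13 ± 0.32; 0.00473).

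**Figure D5:**
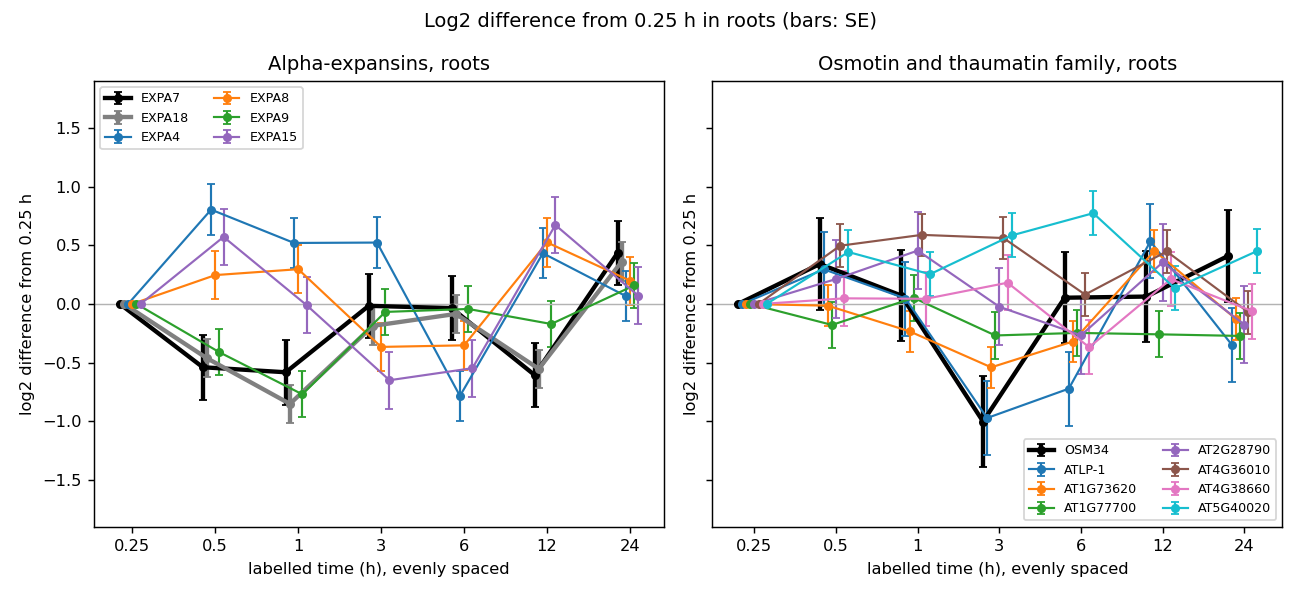
Log2 difference from 0.25 h in roots (y axis) against labelled time (x axis, evenly spaced) for 6 alpha-expansins (left) and OSM34 with 7 thaumatin family genes (right). Bars are standard errors of the joint fit. EXPA7, EXPA18 and EXPA9 lie below 0 at 1 h while EXPA4 lies above, and OSM34 and ATLP-1 are lowest at 3 h, at -1.0 and -0.97.

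The 7914 probe sets that passed the filter and matched 1 gene were ranked by likeness to each member. Likeness was Pearson's r of log2 signals over 14 arrays. In roots the most like PYK10 was RBL (0.92), but PYK10 varied little there. EXPA7 was most like AT2G45750 (0.95), AT2G46550 (0.94) and EXPA18 (0.94), and EXPA18 was most like AT3G47510 (0.96), AT3G16850 (0.95) and AT1G30870 (0.95). OSM34 was most like AT3G58550 (0.92), AT4G10050 (0.92) and AT3G19660 (0.91). In shoots PYK10 was most like JAL22 (0.94), AT5G04760 (0.89) and JAL33 (0.88). Without replicate 1 at 0.5 h the r of PYK10 with JAL22 was 0.91 and with JAL33 0.76. PYK10 and OSM34 had an r of 0.62 over the 14 shoot arrays and of 0.22 without that array. In roots PYK10 and OSM34 correlated at -0.06, and the expansins with either at -0.15 to 0.04.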

How the data were processed

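The members and gene lists used here were chosen with earlier results of these data known. Expression was measured on 28 one-colour Affymetrix arrays of roots and shoots at 7 times, with 2 arrays in each of 14 groups. The authors deposited 1 linear intensity per probe set and array, computed with MAS5 per the submitters' processing notes. Detection calls, the MAS5 version and raw image files were not used here.

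Of 22810 probe sets, 64 controls were dropped. The pseudocount 9.58, the 25th percentile of the deposited intensities, was added before log2, so that differences of dim probe sets are understated. A probe set was kept where 2 or more of the 28 arrays had it over the array median (14806 of 22746). A linear model with 14 group means was fitted (limma 3.58.1 under R 4.3.3, with statmod 1.5.0; eBayes with trend and robust). The prior added 7.24 degrees of freedom to 14 residual ones. Tests were 2-sided, Benjamini-Hochberg adjustment ran over all kept probe sets, and a call is an adjusted p under 0.05. Changes over time were tested by moderated F, and tissue differences of changes by interaction contrasts. The pipeline was run on simulated data, and the outcome is not given here. The simulated noise had 1 spread per probe set for both tissues. It therefore cannot vouch for joint-fit calls of genes whose spread differed between tissues, such as EXPA7 and OSM34.

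Named genes were the members, up to 4 genes per list by F in roots and up to 3 in shoots, genes whose tissue difference ran against the list name, and, per member and tissue, the 3 most similar probe sets. Probe sets were named from annotation tables (13513 matched 1 gene, 503 several, 8730 none). Alternatives were other pseudocounts, filters, normalizations and fit options, separate fits per tissue, a replicate block, and leaving out each array. Deviations of same-numbered arrays of different times were weakly correlated (r of -0.12 to 0.22 in roots and -0.22 to 0.11 in shoots, over 21 pairs of times each). Those of same-numbered root and shoot arrays of a time had r of -0.07 to 0.11, over 7 times. The labels do not say whether replicate numbers pair samples, and these values cannot decide it. The main fit used no pairing. The number of arrays limits the precision. Sequences and genome coordinates were not used here.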

Additional observations from a re-analysis of the deposited data

Results flagged for a closer look

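A change from 0.25 h that differed between roots and shoots, by limma's interaction contrast, was found for EXPA18 at 1 h (roots minus shoots -1.10 ± 0.23 on the log2 scale; adjusted p = 0.00225), for EXPA18 at 6 h (0.57 ± 0.23; 0.0449) and for PYK10 at 12 h (1.44 ± 0.41; 0.0158). EXPA18 at 1 h was called in each setting that gave it a value and in each array omission tried. However, EXPA18 passed the filter through root arrays alone, and its shoot change at 1 h was not called (0.25; adjusted p = 0.276). The EXPA18 value at 6 h lost its call in 4 other settings and 14 of 28 omissions, and that of PYK10 in 3 omissions. The causes were not tested.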

How the results depend on the processing

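For 73 results of the 4 genes, 10 alternative settings gave 654 values, of which 595 kept their direction and side of the threshold, 17 fell below it, 42 passed it and 0 changed sign. Leaving out 1 array gave 2044 values, of which 1959 kept both, 53 fell below the threshold, 30 passed it and 2 changed sign. Both sign changes were of PYK10 in shoots at 0.5 h (-0.38 without shoot 0.5 h replicate 1 and -0.03 without shoot 0.25 h replicate 1, in a range of -0.38 to 0.97). With no pseudocount the calls were lost for EXPA7 in roots over time (highest minus lowest mean 1.21) and at 24 h against 12 h (1.21), and for EXPA18 in roots at 12 h (-0.63) and at 3 h against 1 h (0.78). OSM34 in roots gained its calls over time and at 3 h with a pseudocount at the median signal (1.38 and -0.98), quantile normalization between all arrays (1.58 and -1.12), a separate fit per tissue (1.41 and -1.0) and no trend and robust options (1.41 and -1.0). PYK10 in shoots lost its call at 1 h (-0.91) and 24 h (-1.16) with a separate fit. At 3 h PYK10 in shoots lost it with the median pseudocount (-0.69), no filter (-0.72), quantile normalization over the 28 arrays (-0.63) or by tissue (-0.69), median centring (-0.71), a separate fit (-0.72) and the replicate block (-0.72; adjusted p = 0.0639). The replicate block changed no other call of the 4 genes, and whether replicate numbers pair samples is not known. The tissue difference of EXPA18 at 6 h lost its call with the median pseudocount (0.20), no filter (0.57) and quantile normalization over the 28 arrays (0.54) or by tissue (0.49).

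Leaving out arrays moved PYK10 in shoots at 1 h between -1.23 and -0.59, at 3 h between -1.04 and -0.41 and at 24 h between -1.48 and -0.84, and its tissue difference at 12 h between 1.12 and 1.75. EXPA7 in roots lay between 0.95 and 1.16 over time and between 0.95 and 1.14 at 24 h against 12 h. EXPA18 lay between -0.71 and -0.40 in roots at 12 h, between 0.63 and 0.70 in roots at 3 h against 1 h, between -0.89 and -0.43 in shoots at 6 h, and between 0.34 and 0.80 for the tissue difference at 6 h. OSM34 lay between 1.35 and 1.47 over time in roots, between -1.06 and -0.95 at 3 h in roots, and between 1.07 and 2.63 at 0.5 h in shoots. A filter at the 75th percentile gave no value for EXPA7 and EXPA18, which did not pass it. In this data set the low signals in shoots and 2 arrays per group limit the values, and the causes of the changes were not tested. Median shifts of all probe sets between roots and shoots were 0.28, 0.17 with quantile normalization over the 28 arrays, 0.28 with it by tissue, and 0.05 with centring, and the sign of the 4 tissue differences held in each. The tissue differences moved with the pseudocount, to 2.73 and 0.94 for EXPA7 with none and with the median, 2.26 and 0.98 for EXPA18, and 7.14 and 4.94 for OSM34.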
